A study of Mus musculus with 2 samples.

Results

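The genes described here encode the chains of collagens and laminins, the main structural proteins of connective tissue and of basement membranes. They were taken as the protein-coding genes whose symbol is Col, a number, a and a number, or Lama, Lamb or Lamc and a number, in the mouse annotation GENCODE M21, which gave 55 of 21938 protein-coding genes. There were 44 collagen genes, of which 11 encode fibrillar collagens, 8 basement membrane collagens and 25 other collagens, and 11 laminin genes. Open chromatin was mapped by DNase-seq, in which the enzyme DNase I cuts accessible DNA in nuclei and the cut sites are sequenced. The mice were B6CASTF1/J males, 2 months old, which descend from C57BL/6J crossed with CAST/EiJ, and the tissue taken was their right cerebral cortex. All samples formed 1 group of 2 libraries, replicate 1 labelled as animal 5 and replicate 2 as animal 6, under the same donor record. With 1 group there was no contrast to test, and each value is given for replicate 1 and then for replicate 2.

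A collagen is built from 3 chains wound around each other. Fibrillar collagens pack into the fibres of skin, bone, cartilage and the meninges, whereas type IV collagen forms the sheet of basement membranes. Laminins join an alpha, a beta and a gamma chain into a cross-shaped molecule that forms the other sheet of the basement membrane and is bound by integrins and dystroglycan on cells. In the brain, basement membranes surround blood vessels and lie under the meninges, and most of their chains are made by endothelial cells, pericytes, fibroblasts and astrocytes rather than by neurons.

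A peak is a stretch of accessible DNA called by the authors in a library, and its height is their signal, in units of unstated scaling. The smaller and stricter peak set, used here, counted 91818 peaks for replicate 1 and 75245 for replicate 2, with median heights of 0.932 and 0.806, so counts and heights are read within a library. No sequencing depth was given with the labels. A promoter peak is a peak within 1000 bp of an annotated transcript start of the gene. A peak described as at a start or a transcript lay within 1000 bp of that start and need not cover it. A coding start is the start of a transcript that encodes protein, since several collagen genes also have short noncoding transcripts that start far inside the gene.

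The sequences below show the DNA under promoter peaks of each class, taken from the 2 tallest per class found in both libraries, and under the tallest peak away from any start. Each is 240 bases of the reference genome (mm10, GRCm38.p6) around the centre of the replicate 1 peak, written 5′ to 3′ on the strand of the gene. Capitals mark bases inside footprints that the authors called in both libraries, a footprint being a short protected stretch inside accessible DNA. The Col26a1 sequence is labelled by its nearest start, which lay 409 bp from the peak and is not within the sequence. The Col4a5 peak is low, at percentiles 6.27 and 4 of all peaks in its library.
Col1a1, chr11:94937061-94937300, plus strand: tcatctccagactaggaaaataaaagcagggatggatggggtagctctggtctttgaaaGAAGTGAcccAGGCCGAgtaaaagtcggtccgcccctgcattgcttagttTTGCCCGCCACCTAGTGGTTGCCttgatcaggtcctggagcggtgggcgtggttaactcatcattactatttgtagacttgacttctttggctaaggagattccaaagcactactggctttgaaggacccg
Col27a1, chr4:63215211-63215450, plus strand: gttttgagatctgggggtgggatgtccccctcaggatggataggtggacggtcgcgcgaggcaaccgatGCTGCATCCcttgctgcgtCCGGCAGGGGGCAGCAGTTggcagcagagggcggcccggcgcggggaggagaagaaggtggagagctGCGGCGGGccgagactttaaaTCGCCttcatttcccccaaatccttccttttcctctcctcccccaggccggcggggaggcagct
Col4a1 and Col4a2 (shared, on the strand of Col4a1), chr8:11312681-11312920, minus strand: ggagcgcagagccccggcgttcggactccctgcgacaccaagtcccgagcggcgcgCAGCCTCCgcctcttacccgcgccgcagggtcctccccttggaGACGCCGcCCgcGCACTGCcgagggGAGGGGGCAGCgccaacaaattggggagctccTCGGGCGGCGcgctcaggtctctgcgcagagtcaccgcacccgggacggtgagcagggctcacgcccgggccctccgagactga
Col4a5, chrX:141475191-141475430, plus strand: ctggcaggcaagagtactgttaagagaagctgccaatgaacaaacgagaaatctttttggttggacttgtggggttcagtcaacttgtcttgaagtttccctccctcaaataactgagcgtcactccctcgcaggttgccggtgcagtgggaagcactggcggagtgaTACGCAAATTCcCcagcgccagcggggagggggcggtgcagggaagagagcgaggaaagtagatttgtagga
Col25a1, chr3:130180641-130180880, plus strand: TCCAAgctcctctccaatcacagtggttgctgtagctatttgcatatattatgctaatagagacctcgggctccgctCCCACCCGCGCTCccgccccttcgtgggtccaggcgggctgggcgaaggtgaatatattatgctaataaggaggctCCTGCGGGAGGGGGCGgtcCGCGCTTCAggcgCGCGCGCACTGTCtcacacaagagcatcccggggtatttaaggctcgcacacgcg
Col26a1 (start of a noncoding transcript inside the gene), chr5:136755781-136756020, minus strand: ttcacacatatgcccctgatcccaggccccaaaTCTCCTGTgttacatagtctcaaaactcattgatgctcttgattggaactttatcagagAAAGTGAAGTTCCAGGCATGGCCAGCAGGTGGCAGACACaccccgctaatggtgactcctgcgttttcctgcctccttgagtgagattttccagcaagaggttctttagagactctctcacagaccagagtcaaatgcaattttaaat
Lamb3, chr1:193208271-193208510, plus strand: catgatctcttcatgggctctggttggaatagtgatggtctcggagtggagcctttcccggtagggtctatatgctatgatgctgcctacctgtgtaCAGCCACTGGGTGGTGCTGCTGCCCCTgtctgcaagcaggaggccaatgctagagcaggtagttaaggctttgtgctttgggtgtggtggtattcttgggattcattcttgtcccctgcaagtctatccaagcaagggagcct
Col16a1 (intron, away from any start), chr4:130087421-130087660, plus strand: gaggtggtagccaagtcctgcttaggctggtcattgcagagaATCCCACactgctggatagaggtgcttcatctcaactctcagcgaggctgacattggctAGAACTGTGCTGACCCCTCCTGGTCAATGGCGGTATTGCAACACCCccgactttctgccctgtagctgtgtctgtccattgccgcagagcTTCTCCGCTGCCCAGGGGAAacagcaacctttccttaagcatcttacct

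These sequences ranged widely in base composition. The Col4a1 and Col4a2 sequence had 73.8% G and C and 30 CpG sites, and that of Col25a1 59.6% and 20. The Col27a1 sequence had 65% and 17, and those of Col1a1, Col4a5 and Col16a1 had between 50% and 54.6% G and C. At the low end, the Col26a1 sequence had 46.2% G and C and 2 CpG sites, and the Lamb3 sequence 52.9% and 2. The GC box GGGCGG, searched on both strands, occurred 2 times in the sequence of Col4a1 and Col4a2, 1 of them wholly in capitals, and 2 times in that of Col25a1, neither wholly in capitals. It occurred in 20 of the 62 promoter peaks of collagen and laminin genes in replicate 1 (32.3%), against 46.4% of the 27656 promoter peaks of all protein-coding genes. The letters AGGNGGC, the centre of the motif of the insulator protein CTCF, were wholly in capitals in the sequences of Col1a1, Col27a1, Col4a1 and Col4a2, Col26a1 and Col25a1. They occurred in 27 of the 62 promoter peaks (43.5%), against 35% of the promoter peaks of all protein-coding genes, and were searched for after the sequences had been seen. The TATA box TATAAA was found in 7 of the 62 (11.3%, against 3.89%), and the ETS site CCGGAAG in 1 (1.61%, against 9.42%). A match of letters is a description of these windows and not a binding site.

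Promoters of collagen and laminin genes were open less often than those of protein-coding genes at large, and their peaks were lower. A promoter peak was found at 28 of the 55 genes in replicate 1 (50.9%), against 63.4% of all protein-coding genes, and at 21 in replicate 2 (38.2%, against 59.3%). In both libraries 20 genes had one (36.4%, against 58.7%). Another 8 had one in replicate 1 only, 1 in replicate 2 only, and 26 in neither (47.3%, against 36%). Of all 21938 protein-coding genes, 1037 had one in replicate 1 only and 123 in replicate 2 only. At coding starts the counts were 26 (47.3%, against 62.0%), 17 (30.9%, against 57.7%) and, in both libraries, 17 (30.9%, against 57.2%). Of the 20 genes with a promoter peak in both libraries, 3 (15%) had none at a coding start in both, against 2.64% of the 12882 such protein-coding genes. Fewer still had a peak that covered the coding start itself: 13 genes in replicate 1 (23.6%, against 49.4%), 6 in replicate 2 (10.9%, against 45.6%) and 5 in both (9.09%, against 42.9%). These 5 were Col11a1, Col4a1, Col4a2, Col4a5 and Col19a1.

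The median height of the promoter peaks was 0.798 over 62 peaks in replicate 1 and 0.66 over 37 in replicate 2, against 1.36 and 1.18 for all protein-coding genes. That placed the median peak of the collagen and laminin genes at percentiles 41.1 and 37.5 of all peaks in its library, against 68.5 and 70.9. Of the 62 promoter peaks of replicate 1, 33 (53.2%) were shared with replicate 2. Of the 37 in replicate 2, 32 (86.5%) were shared with replicate 1. Over all peaks of the libraries the shares were 66.2% and 80.8%, and none was computed for promoter peaks of all genes. Footprints lay in 51 (82.3%) and 29 (78.4%) of the promoter peaks, against 81.8% and 79.9% for all protein-coding genes. Per kb of promoter peak there were 12.5 and 8.73 footprints, against 13.3 and 11.9. The spread by class can be followed in the plot of promoter peak heights.

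**Figure D1:**
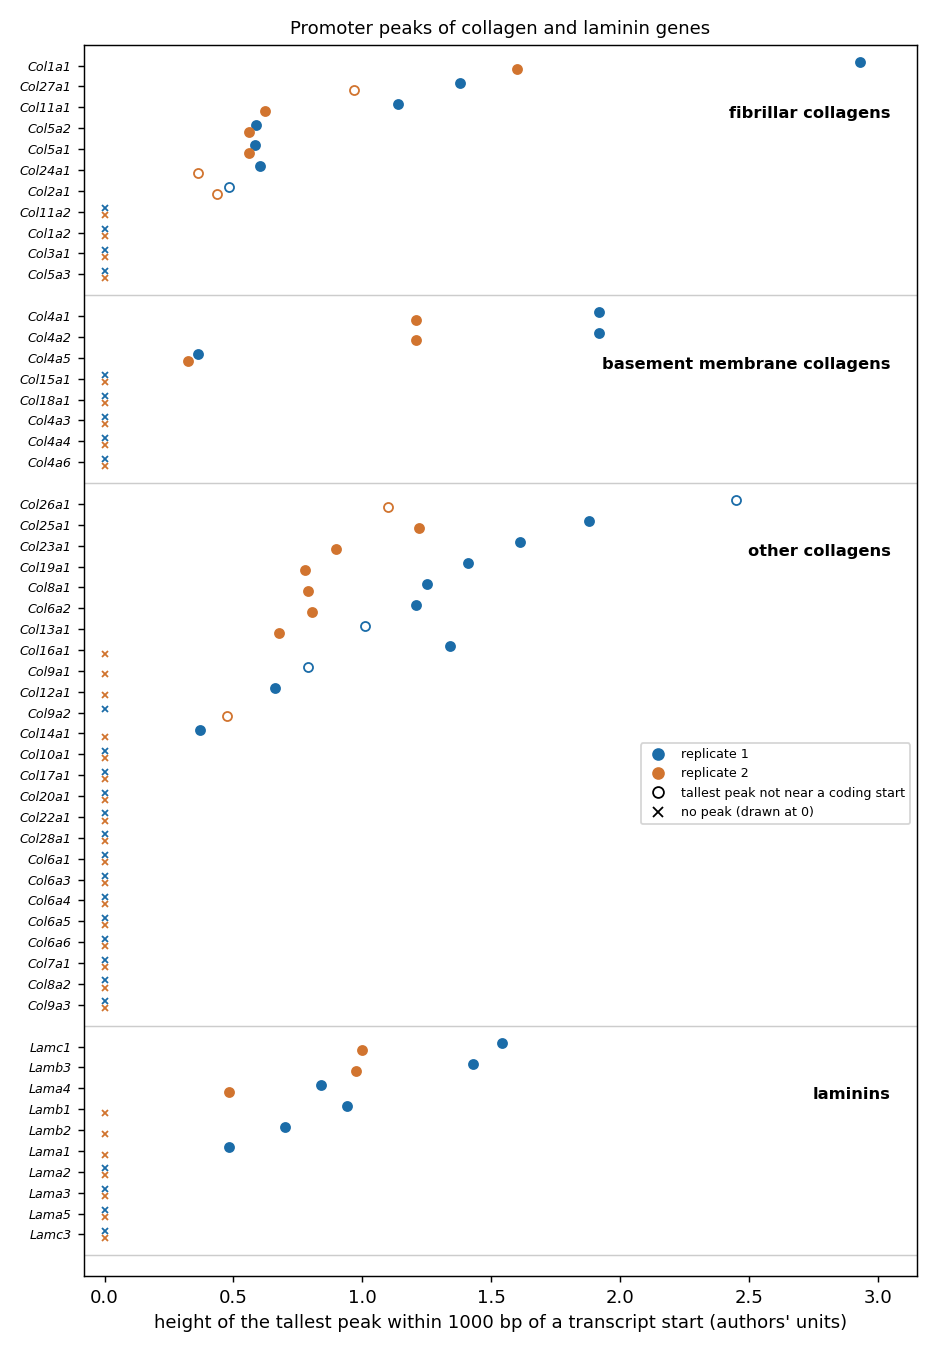
Height of the tallest promoter peak of 54 of the 55 genes, in the authors' units, by class. Blue points are replicate 1 and orange points replicate 2, open circles mark a tallest peak that is not near a coding start, and crosses at 0 mark genes without a promoter peak. Col1a1 reached 2.93 and 1.60, and 26 genes have crosses in both libraries.

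Among fibrillar collagens, 7 of 11 genes had a promoter peak in each library and the same 7 in both, a share of 63.6%. That was near the shares over all protein-coding genes, 63.4%, 59.3% and, in both, 58.7%, while the other classes had 27.3% to 37.5% in both libraries. With coding starts alone the counts were 6 in replicate 1, 5 in replicate 2 and 5 in both (45.5%, against 57.2%). Col1a1, the alpha 1 chain of type I collagen, had the tallest promoter peak of all 55 genes, at 2.93 and 1.60 and at percentiles 89.5 and 82.5 of its library. It did not sit on the start: the peak centre lay 956 bp inside the gene in replicate 1 and 966 bp in replicate 2, and a pair of further peaks 1406 bp and 3246 bp into the gene in replicate 1 stood at the starts of noncoding transcripts. Its partner Col1a2, the alpha 2 chain of the same protein, had no promoter peak in either library, and the nearest peak was 40388 bp from its coding start in replicate 1 and 40348 bp in replicate 2.

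Col27a1, a fibrillar collagen gene of cartilage, reached 1.38 and 0.968, and 1.38 and 0.799 at its coding start. Col11a1, which encodes a chain of type XI collagen, reached 1.14 and 0.622 with a peak over the start. Both were taller in replicate 1, as peaks were across the library, where the median ratio between shared peaks was 1.38. The type V genes Col5a2 and Col5a1, whose products limit the width of collagen fibrils, were lower, at 0.588 and 0.561 for Col5a2 and 0.582 and 0.561 for Col5a1. The last places were weaker or lay elsewhere. Col24a1 reached 0.601 at its coding start in replicate 1, while in replicate 2 its peak of 0.361 lay near a noncoding transcript 221933 bp into the gene. Col2a1, the main collagen gene of cartilage, had 0.482 and 0.438 at a noncoding transcript and none at a coding start. Col3a1, which encodes the collagen of elastic organs and vessel walls, Col1a2, Col5a3 and Col11a2 had no promoter peak. The nearest peak to the Col3a1 start was 15993 bp away in replicate 1 and 2483 bp in replicate 2.

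Basement membrane collagens differed between gene pairs. The 6 type IV genes lie head to head in 3 pairs, of which that of Col4a5 and Col4a6 also differed within itself. Col4a1 and Col4a2, which encode the widespread form of type IV collagen found around brain vessels, start 21 bp apart and shared a peak of 1.92 and 1.21 over both starts, at chr8:11312681-11312920 in replicate 1. This peak held 9 footprints in replicate 1 and 7 in replicate 2, and lower peaks stood on either side of it within 1000 bp, at 0.807 and 0.77 in replicate 1. Since the pair shares these peaks, the 2 genes are not independent. Col4a3 and Col4a4, whose chains are known from the kidney glomerulus, start 72 bp apart and had no promoter peak, no peak of the larger set and no listed base (false discovery rate under 0.05) within 1000 bp of a start in either library.

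The remaining pair, Col4a5 and Col4a6, lies on the X chromosome, with starts 1309 bp apart. The mice were males, which carry a single X chromosome, so heights there do not compare directly with those of the other pairs. The part of copy number was not tested. Col4a5, which pairs with the Col4a3 and Col4a4 chains in kidney, had a low peak over its start, at 0.363 and 0.323. Col4a6 had none within the window, and the nearest peak was 1105 bp and 1065 bp from its coding start, so Col4a6 lay just outside the limit of 1000 bp. On the inner side of that limit was Col1a1, whose nearest peak lay 857 bp from the coding start in both libraries. Col15a1 and Col18a1, the multiplexin genes of the basement membrane zone, of which Col18a1 gives rise to endostatin, had no promoter peak, with the nearest peaks 5594 bp and 5638 bp from the coding starts of Col15a1 and 4504 bp and 4493 bp from those of Col18a1. In all, 3 of 8 basement membrane collagen genes had a promoter peak in each library (37.5%, against 63.4% and 59.3% of all protein-coding genes).

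**Figure D2:**
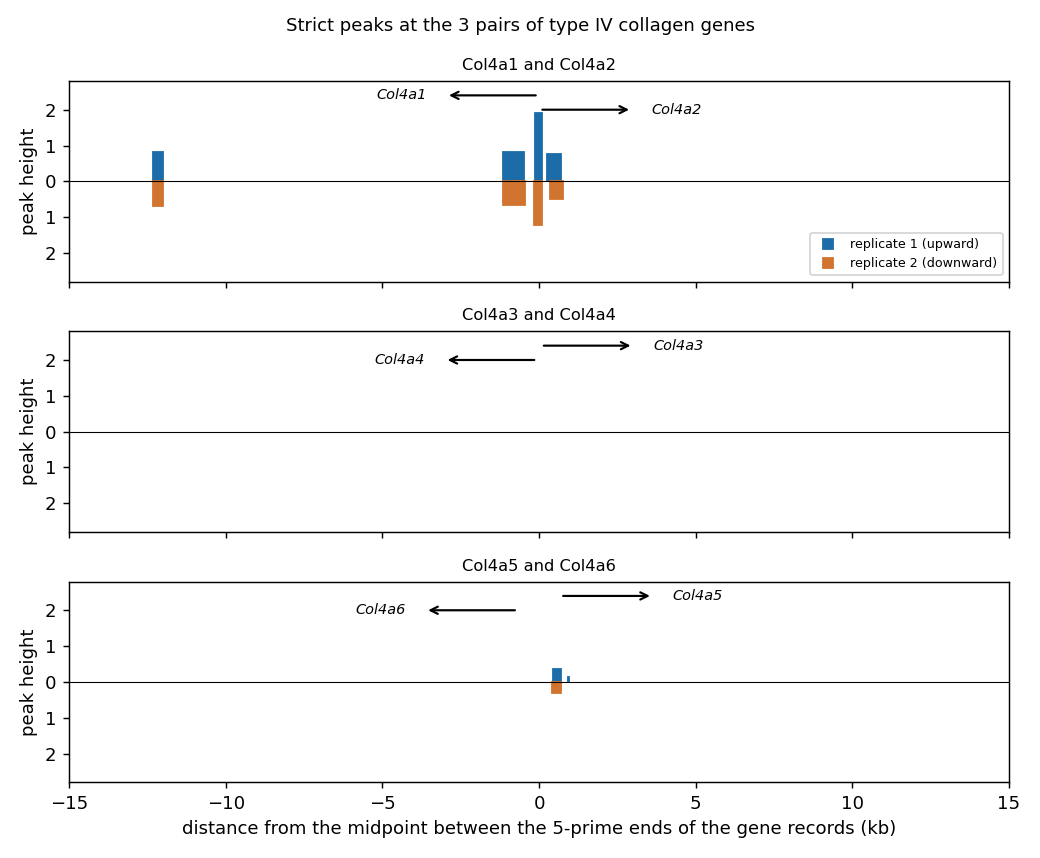
Peaks of replicate 1 (blue, upward) and replicate 2 (orange, downward) within 15 kb of the point midway between the 5-prime ends of the 3 pairs of type IV collagen genes, with height in the authors' units. Arrows give the direction of each gene. The Col4a1 and Col4a2 pair has a peak of 1.92 and 1.21 at its centre, the Col4a5 and Col4a6 pair one of 0.363 and 0.323 near Col4a5, and the Col4a3 and Col4a4 pair none in the range shown.

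Of the 25 other collagens, 13 had no promoter peak (52%), against 5 of 8 basement membrane collagens (62.5%). Among all protein-coding genes that share was 36%. A promoter peak was present at 11 in replicate 1 (44%, against 63.4%), 8 in replicate 2 (32%, against 59.3%) and 7 in both (28%, against 58.7%). Of the 4 transmembrane collagens, 3 had it in both libraries. Col25a1, a transmembrane collagen made by neurons and known from amyloid plaques, reached 1.88 and 1.22 with the peak centre of replicate 1 131 bp upstream of a coding start but 49259 bp into the gene record. Col23a1 reached 1.61 and 0.898, with the peak centre 270 bp and 276 bp upstream of the coding start. Col13a1, found at the neuromuscular junction, reached 1.01 in replicate 1 at a noncoding transcript and 0.676 in replicate 2 at a coding start, where replicate 1 had 0.895. Col17a1, the hemidesmosome collagen of skin, had none, with the nearest peak 13114 bp away in both libraries.

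The tallest promoter peak of the class in replicate 1 belonged to Col26a1, at 2.45, against 1.10 in replicate 2, where Col25a1 was taller. The Col26a1 peak lay 127309 bp into the gene in replicate 1, 409 bp from the start of a noncoding transcript. At its coding start Col26a1 had 0.832 in replicate 1 and none in replicate 2. A taller peak shared by both libraries, at 2.93 and 1.74, lay 1461 bp from the coding start in replicate 2, past the limit. Col19a1, a member of the FACIT group that binds to the surface of fibrils and a gene used by cortical interneurons, reached 1.41 and 0.776, with 3 adjoining peaks from the start inward in each library. Col8a1, a network collagen of vessel walls and the cornea, reached 1.25 and 0.791, upstream of the start. Col6a2 was the only 1 of 6 type VI genes, which form beaded filaments, to have a promoter peak, at 1.21 and 0.806. Col6a1, whose chain assembles with that of Col6a2, had none, with the nearest peak 2364 bp and 4183 bp away, and Col6a3, Col6a4, Col6a5 and Col6a6 had none either.

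All 5 of the other collagens with a promoter peak in 1 library only were FACIT genes. Of the 9 FACIT genes, 5 had a promoter peak in replicate 1 (55.6%, against 63.4% of all protein-coding genes). In replicate 2 it was 2 (22.2%, against 59.3%), and Col19a1 was the only member with one in both. Col16a1 had 1.34 in replicate 1 over its start and none in replicate 2, where the nearest peak was 10540 bp away, although the larger set of replicate 2 had 2 peaks in the window. Col12a1 had 0.663 and Col14a1 0.369 in replicate 1 only. In replicate 2 the nearest peaks lay 1318 bp and 1170 bp from their coding starts, just past the limit. Those peaks were shared by both libraries, at 2.48 and 1.5 for Col12a1 and at 1.96 and 1.37 for Col14a1. In replicate 1 they were taller than the promoter peaks counted there. For these genes the libraries thus differed in the lower peaks within the limit, and not in the taller peak beyond it. Col9a1 had 0.789 in replicate 1 only and Col9a2 0.476 in replicate 2 only, and both peaks lay at noncoding transcripts. Those 2 genes encode chains of type IX collagen of cartilage, and the gene of the third chain, Col9a3, had none. No promoter peak was found at Col20a1, Col22a1, Col28a1, the skin anchoring fibril gene Col7a1, the network gene Col8a2 or the growth plate gene Col10a1.

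**Figure D3:**
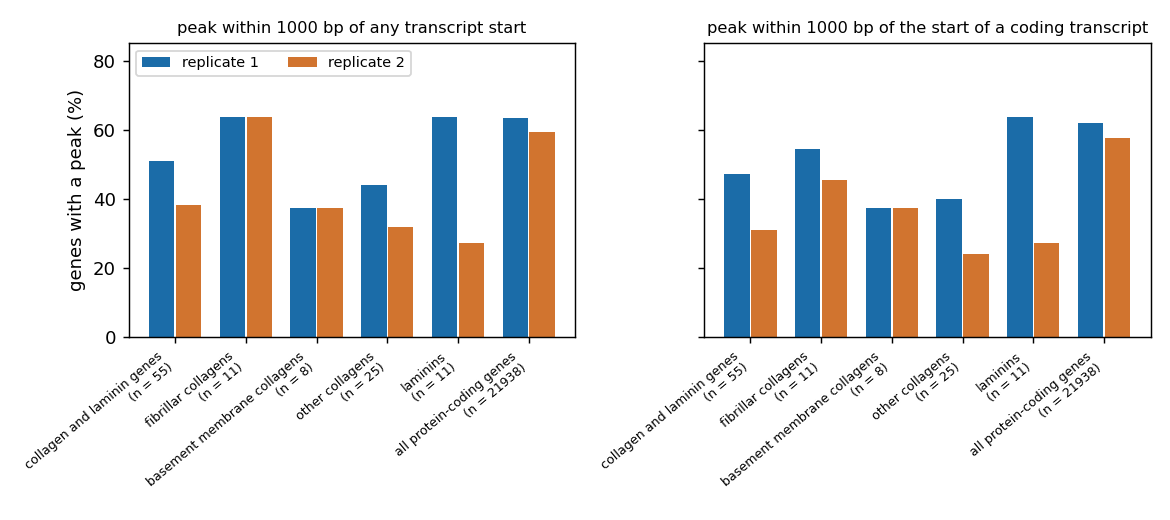
Share of genes with a promoter peak in replicate 1 (blue) and replicate 2 (orange), for the 55 collagen and laminin genes, their 4 classes and all 21938 protein-coding genes, with any transcript start on the left and coding starts alone on the right. The 55 genes stand at 50.9% and 38.2% for any start and all protein-coding genes at 63.4% and 59.3%, and laminins differ most between the libraries, at 63.6% and 27.3%.

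Laminin promoters differed most between the libraries. In replicate 1, 7 of 11 laminin genes had a promoter peak (63.6%, against 63.4% of all protein-coding genes). In replicate 2, 3 did (27.3%, against 59.3%), all of them among the 7. Lamc1 encodes the gamma 1 chain, which is part of most laminins, and reached 1.54 and 0.998, beside further peaks of 0.87 to 0.995 in replicate 1 and 0.898 in replicate 2. Lamb3 encodes a beta chain of a laminin of skin. It reached 1.43 and 0.975, with the peak centre 691 bp and 688 bp inside the gene, and a second peak at a noncoding start of Lamb3, at 0.932 and 0.614, was also near the start of G0s2. Lama4, which encodes an alpha chain of vessel basement membranes, reached 0.839 and 0.484. All 3 were thus taller in replicate 1, as were most shared peaks.

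Seen in replicate 1 only were, among others, Lamb1 (0.939), Lamb2 (0.701) and Lama1 (0.482). Lamb1 and Lamb2 encode the beta chains that join the gamma 1 chain, and Lama1 the alpha chain of the early embryo. Replicate 2 still listed bases within 1000 bp of a start at Lama1 and Lamb1. The lowest false discovery rate there was 0.0007709 at Lama1 and 0.001691 at Lamb1, and none was listed at Lamb2. Lama2, the alpha chain of muscle and of the sheath around brain vessels, Lama5, another vessel alpha chain, Lama3 and Lamc3 had no promoter peak in either library. The nearest peaks to the coding starts of Lama5 were 25502 bp away in both libraries, and those of Lama2 9445 bp and 9085 bp. The number of peaks around laminin genes was higher in replicate 1 at 10 of the 11 (90.9%, against 47% of all protein-coding genes). Counts were equal in both libraries at 0 laminin genes, against 37.6% of all protein-coding genes. These counts include the promoter peaks, so they are not independent of the promoter counts.

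Weaker accessibility reached more of the genes. In the larger peak set 35 of the 55 genes had a promoter peak in replicate 1 (63.6%, against 68.2% of all protein-coding genes), and 33 did in replicate 2 (60%, against 65.0%). At least 1 base with a false discovery rate under 0.05 was listed within 1000 bp of a start at 39 genes in replicate 1 (70.9%, against 69.2%) and at 36 in replicate 2 (65.5%, against 66.1%). The shortfall against other genes was thus small or absent for listed bases, and wide for strict peaks. Genes with no such base in either library included Col1a2, Col3a1, Col4a3, Col4a4, Col10a1, Col17a1 and Lamc3.

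CpG content differed as well, and its part in the lower share of open promoters was not tested. A gene was counted as CpG-rich where the ratio of observed to expected CpG from 250 bp upstream to 50 bp downstream of its 5-prime end was at least 0.6. That held for 15 of the 55 genes (27.3%), against 44.4% of all protein-coding genes. Among CpG-rich genes, 7 of the 15 (46.7%) had a peak at a coding start in both libraries, against 88.0% of CpG-rich protein-coding genes. Among CpG-poor genes it was 10 of 40 (25%), against 32.6%. The 7 were Col4a1, Col4a2, Col5a1, Col13a1, Col23a1, Col27a1 and Lamc1, and the CpG-rich genes without such a peak in either library were Col2a1, Col5a3, Col8a2, Col15a1, Lama5 and Lamc3. Col12a1 and Lamb1, also CpG-rich, had it in replicate 1 only. The class describes the 5-prime end of the gene record, which can lie far from the coding start with the peak. Col25a1 counted as CpG-poor with a ratio of 0.26, whereas its promoter peak sequence printed above had 0.94.

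In and around the genes, peaks were more numerous than for the median protein-coding gene and less dense. Over the gene body with 20000 bp added at either end, at least 1 peak was found at 54 of the 55 genes in replicate 1 (98.2%, against 84.3% of all protein-coding genes) and at 54 in replicate 2 (98.2%, against 83.4%). The exception in both was Col10a1. The median number was 6 and 5, a mean of 5.5 ± 0.707 (SD, n = 2), against 4 and 3 for all protein-coding genes. The windows were longer too, with a median of 154 kb against 57.4 kb. Per 100 kb of window the medians were 4.96 and 3.63, a mean of 4.29 ± 0.944 (SD, n = 2), against 5.62 and 4.56, a mean of 5.09 ± 0.755 (SD, n = 2). Of the 55 genes, 33 had more peaks in replicate 1 (60%, against 47%), 13 as many in both (23.6%, against 37.6%) and 9 more in replicate 2 (16.4%, against 15.3%).

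**Figure D4:**
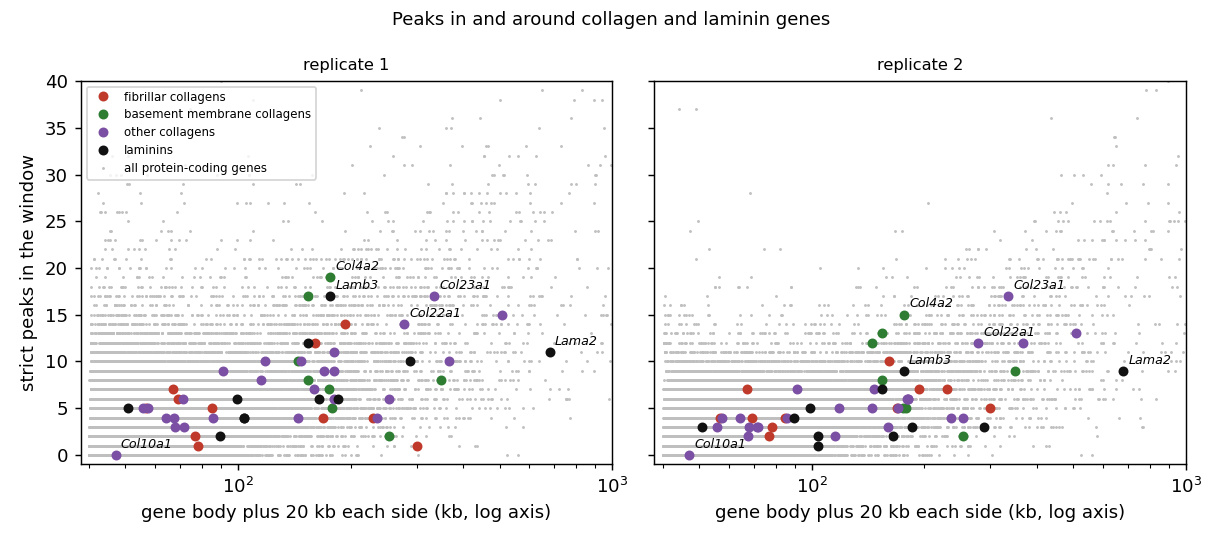
Peak counts over the gene body with 20 kb at either end (vertical) against the length of that window in kb on a log axis (horizontal), for replicate 1 on the left and replicate 2 on the right. Coloured points are the 4 classes of collagen and laminin genes and grey points all protein-coding genes, of which those beyond the axes are not drawn. Col4a2 stands at 19 and 15, Col23a1 at 17 and 17, and Col10a1 at 0 in both.

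In replicate 1 the highest count was that of Col4a2, and in replicate 2 that of Col23a1. The basement membrane collagens were led by the pair of Col4a2, with 19 and 15, and Col4a1, with 17 and 13, whose windows shared 5 and 6 of these peaks. Col15a1 followed in this class with 10 and 12, although it had no promoter peak. Among fibrillar collagens Col5a1 had 14 and 7, Col27a1 12 and 10, and Col11a2 7 and 7, again with no promoter peak at Col11a2. All of the Col11a2 peaks lay in the flanks and none in the gene itself. Several of them were at the starts of other coding genes, namely Ring1, H2-Ke6, Rxrb and Slc39a7. The other collagens were led by Col23a1 with 17 and 17, Col25a1 with 15 and 13 and Col22a1, a collagen gene of muscle and tendon junctions with no promoter peak, with 14 and 12. Lamb3 led the laminins with 17 and 9, ahead of Lama2 with 11 and 9 and Lamc1 with 12 and 7. The Lamb3 counts include peaks near the starts of the coding genes Hsd11b1 and G0s2. The tallest of them, at 2.93 and 2.09, was at Hsd11b1. The Lama2 window is the longest of all, at 680 kb, and had 1.62 and 1.32 peaks per 100 kb, whereas the 154 kb window of Col4a1 had 11 and 8.42 per 100 kb.

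Counting each peak once, the windows held 392 peaks in replicate 1 and 305 in replicate 2. Introns held most of them, 203 (51.8%) and 175 (57.4%), and the flanks 62 and 46. The tallest group was at the starts of other protein-coding genes within the windows, 33 and 28 peaks with median heights of 2.93 and 2.14. Peaks at coding starts of the collagen and laminin genes themselves had medians of 0.77 and 0.714, and peaks in their introns 0.901 and 0.753, so the coding starts did not exceed the introns in either library. Of the window peaks, 64% and 81.3% overlapped a peak of the other library, near the shares for all peaks, 66.2% and 80.8%. Across the 251 shared window peaks the median of replicate 1 over replicate 2 was 1.39, against 1.38 over all 60789 shared peaks, with Spearman's rho of 0.88 against 0.91, where peaks of the same 2 libraries are not independent.

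**Figure D5:**
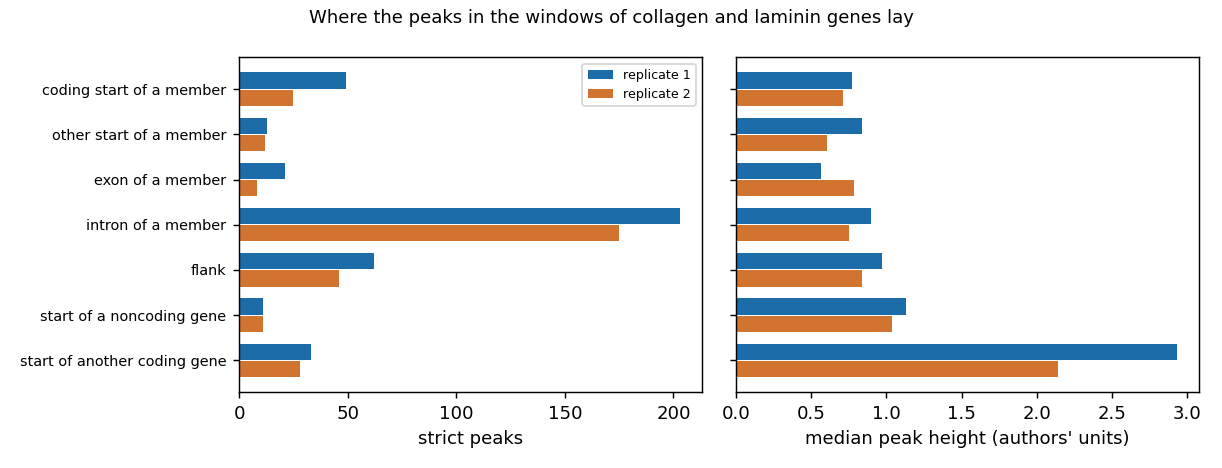
Number of peaks (left) and their median height in the authors' units (right) by place within the windows of the 55 genes, for replicate 1 (blue) and replicate 2 (orange). "Member" stands for a collagen or laminin gene. Introns hold the most peaks, 203 and 175, and the starts of other coding genes the tallest, with medians of 2.93 and 2.14.

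The tallest shared peaks away from any start were taller than every promoter peak of these genes. In an intron of Col16a1, 39700 bp from its 5-prime end, a peak at chr4:130087441-130087640 reached 4.81 and 2.89, and its sequence is the last of those printed above. A peak 16093 bp upstream of Col5a3, at chr9:20831081-20831240, reached 4.47 and 3.07 and lay in no gene body. Col23a1 had an intronic peak of 4.43 and 2.87 at chr11:51539721-51539940. Both Col16a1, without a promoter peak in replicate 2, and Col5a3, without one in either library, thus had a tall peak within their window. The nearest annotated start to the peak upstream of Col5a3 was that of Rdh8, 12657 bp away, and these data do not tie a peak to a gene.

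Another intronic peak, in Col18a1 at chr10:77130641-77130880, reached 4.34 and 2.63, 35788 bp from the 5-prime end of a gene with no promoter peak. In Col26a1 the intron peak at chr5:136790901-136791100 reached 4.41 and 2.50. Lama3, also without a promoter peak, had an intronic peak of 3.75 and 2.60 on chromosome 18. Intronic peaks of Col4a1 (3.59 and 2.50 at chr8:11273541-11273820) and Col27a1 (3.39 and 2.64 at chr4:63291141-63291380, and 3.70 and 2.07 at chr4:63307521-63307660) and a peak 1512 bp upstream of Col13a1 (3.92 and 1.87 at chr10:61980521-61980720) completed the 10. Of these 10, 8 lay in introns of the genes and 2 outside them, and all had footprints in both libraries, between 1 and 4 in each.

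Genes whose products process, join or bind collagens and laminins were counted by role. Of 25 genes for collagen processing, 19 had 1 or more in replicate 1 (76%, against 63.4% of all protein-coding genes) and 17 in replicate 2 (68%, against 59.3%), the same 17 in both (68%, against 58.7%). The tallest at coding starts belonged to genes of the endoplasmic reticulum: the prolyl hydroxylase gene P4ha1 reached 7.67 and 4.76, the prolyl hydroxylase gene P3h1 7.30 and 4.45 by a peak also near AU022252, the P4ha1 partner P4hb, a protein disulfide isomerase gene, 6.45 and 6.04, the cyclophilin gene Ppib 6.19 and 3.63, and the galactosyltransferase gene Colgalt1 5.51 and 3.74. The collagen chaperone gene Serpinh1 had 0.601 in replicate 1 and none in replicate 2. None was found at a coding start of the crosslinking enzyme genes Lox, Loxl1, Loxl2, Loxl3 and Loxl4.

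Among 8 basement membrane partners, 5 had a promoter peak in each library (62.5%, against 63.4% and 59.3%). The perlecan gene Hspg2 reached 1.54 and 0.975, the agrin gene Agrn 1.26 and 0.991 and the nidogen gene Nid2 1.23 and 0.66, while the other nidogen gene, Nid1, had none. Of 13 receptor genes, 10 were open at the promoter in replicate 1 (76.9%, against 63.4%) and 8 in replicate 2 (61.5%, against 59.3%). Dag1, the dystroglycan gene, reached 5.29 and 3.16, Itgb1, the shared integrin beta chain gene, 2.21 and 1.51, and the collagen receptor gene Ddr1 1.81 and 1.27. The collagen receptor gene Ddr2 and the hemidesmosome integrin gene Itgb4 had none.

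Markers of cell types that the tissue holds were read the same way. Of 9 markers of cortical neurons, 9 had promoter peaks in replicate 1 and 7 had them in replicate 2, with 3.59 and 2.62 at Camk2a. Of 8 endothelial markers it was 4 and 1 (50% and 12.5%), and of 8 mural cell markers 2 and 1 (25% and 12.5%). Of 8 markers of fibroblasts and meninges it was 6 and 3 (75% and 37.5%), and of 8 astrocyte markers 6 and 5 (75% and 62.5%). The neuron markers without a promoter peak in replicate 2 were Slc17a7 and Tbr1, at 1.06 and 2.41 in replicate 1. The Tbr1 gene body and flanks held 15 peaks in replicate 1 and 0 in replicate 2. The 3 fibroblast and meninges genes of replicate 2 were Pdgfra, Ptgds and Dcn, at 1.29, 0.507 and 0.292. Of these, Pdgfra and Ptgds are not restricted to such cells in cortex. The shares over all protein-coding genes were 63.4% and 59.3%. All 5 marker lists thus had fewer promoter peaks in replicate 2. The share over all protein-coding genes was also lower there, but by less than in each of these lists of 8 or 9 genes. The part of any cell type in the laminin counts was not tested. In a bulk tissue, fewer cells of a type and less accessibility per cell cannot be told apart.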

How the data were processed

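Peaks, false discovery rates per base and footprints were deposited by the authors for each library, aligned to mm10 per the labels. The peak height is a signal deposited by the authors, with no stated scaling. The false discovery rate is a q-value that the authors listed for bases under 0.05, and their footprints carry the constant 0.01, read as a p-value threshold. No aligner or peak caller is named in the labels. The smaller peak set of each library was used.

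Genes came from GENCODE M21, without the mitochondrial genome, on GRCm38.p6. Peaks counted as overlapping from 1 bp in common. Python 3.11.15, pandas 2.3.3, pysam 0.24.0 and bedtools 2.31.1 were used. Promoter calls and window counts were first tested on simulated peaks, where 200 of 200 genes with a planted peak were recovered among 21938. With 2 libraries in 1 group no test was made. Depth is unknown, so no counting interval is given.

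The text names, per class, up to 5 genes whose promoter peaks, present in both libraries, were tallest on average, genes with a promoter peak in 1 library only or in none, up to 3 with the most peaks around them, and the 10 tallest shared peaks away from starts. A few items chosen this way are not reported here. The genes and lists were chosen with earlier results of these data known. Coding starts, peaks covering a start, distances to the nearest peak, CpG classes and the CTCF letters were added after the data had been seen. Alternatives covered the window, flank, peak set, height, start definition and each library left out.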

Additional observations from a re-analysis of the deposited data

How the results depend on the processing

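Over 61 alternatives, 43 values stayed within 1.5 times of the count or within 1 SD of the median, and 18 moved further. With the taller 50% of peaks alone, 9 of the 55 genes had a promoter peak in both libraries in place of 20, with 2 fibrillar and 3 other collagens, and the medians around the genes were 2.5 peaks and 2.07 per 100 kb. Fibrillar collagens numbered 4 with the 5-prime end of the gene record alone. A 2500 bp window gave 5 basement membrane collagens, 13 other collagens and 5 laminins. In the larger peak set there were 12 other collagens and 6 laminins, and the medians were 10 peaks and 7.36 per 100 kb. With each library left out in turn, other collagens ranged from 8 to 11 and laminins from 3 to 7, the higher value without replicate 2. With no flank the medians were 3.5 peaks and 3.21 per 100 kb, and with a 50000 bp flank the median was 8.5 peaks. Coding starts alone, added after the data had been seen, kept the 5 promoter counts within 1.5 times. The causes were not tested. No paired analysis was possible because there was 1 group. Depth is unknown, so that a weak promoter peak is missing from a library does not show that the promoter was closed.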
